A study of Mus musculus with 24 samples.

Results

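The genes described are 7 that are known from the cumulus and granulosa cells of the ovarian follicle: Kitl, Cyp11a1, Cyp19a1, Inhba, Inhbb, Has2 and Amhr2. They were taken by name from the 21887 protein-coding genes of the mouse RefSeq table, and all 7 were found in it. The study mapped N6-methyladenosine (m6A), the commonest methyl group inside messenger RNA, in C57BL/6N mice through 6 stages: germinal vesicle (GV) oocyte, metaphase II (MII) oocyte, zygote, 2-cell, 8-cell and blastocyst. There were 2 replicates per stage, and each pooled 49 to 110 cells or embryos of hormone-injected females aged 8 weeks. RNA bound by an m6A antibody was sequenced beside its input. The deposited lists give the peaks of bound over input RNA of each library. They held 6914 to 11959 peaks each and 113764 in all, and the inputs themselves were not analysed here. The 6 libraries of 2-cell embryos, 8-cell embryos and blastocysts are called embryonic, and the 6 of GV oocytes, MII oocytes and zygotes, which live mainly on RNA stored by the oocyte, are called maternal. All groups share the mouse strain, and no group carries a transgene or mutation in the labels. The hormone treatment differs. In the labels, GV oocytes had the first gonadotropin alone, while MII oocytes and all embryos had a second one as well. GV oocytes were of the surrounded nucleolus (SN) type and were taken from follicles 48 h after the first gonadotropin (PMSG), kept in IBMX to stop meiosis from going on, and freed of cumulus cells by pipetting. MII oocytes were taken 14 h after the second gonadotropin (hCG), with cumulus cells dispersed by 0.3 mg/ml hyaluronidase. Embryos were flushed from the tract, from 27 h (zygotes) to 94 h (blastocysts) after that injection.

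In the follicle, granulosa cells surround the oocyte, make steroid hormones and growth factors, and exchange signals with it. The innermost of them, the cumulus cells, stay around the egg at ovulation, embedded in a matrix of hyaluronan. m6A is placed on RNA by a methyltransferase complex in the nucleus, is often found near stop codons and in 3′ ends, and is bound by reader proteins that affect the translation and decay of the transcript. Marked means here that at least 1 peak overlapped the gene body. A gene without a peak may be unmethylated, hardly expressed or too shallowly sequenced, since depth is unknown, and in pooled material a smaller number of cells of a type and less RNA per cell cannot be told apart.

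All 7 genes were marked in at least 1 library, where 45.2% of the protein-coding genes were. Their peaks were few and lay mostly in oocytes. Of 23 peaks, 3 were in embryonic and 20 in maternal libraries, and 10 of these 20 were in the GV oocyte libraries. Over all genes, the embryonic lists held 7946 to 9553 peaks each and the maternal lists 6914 to 11959. The GV oocyte lists held 10953 and 11959. The 23 peaks fell into 10 regions, so some are repeat calls of the same place in several libraries. The number of the 7 genes that were marked was 4 and 4 in the GV oocyte replicates, 3 and 4 in MII oocytes, 1 and 1 in zygotes, 0 and 0 in 2-cell embryos, 1 and 1 in 8-cell embryos, and 0 and 1 in blastocysts. The step between oocytes and zygotes was thus larger than the spread between replicates, while the embryonic libraries overlapped the zygotes. The genes were chosen with earlier results of these data known, so these counts are not independent of that choice. The lists also differ in length. With equal numbers of peaks per library, the embryonic minus maternal difference in marked genes of the 7 went from -2.33 to -1.33. Per library, 0.5 ± 0.548 were marked in the embryonic and 2.83 ± 1.47 in the maternal libraries (SD, n = 6 each). Over all protein-coding genes the marked share was 13.8% to 23.9% per library, lowest in zygote replicate 1. Inhbb and Amhr2 were marked in embryonic libraries only, as were 33.8% of the 9903 genes marked at all (15.3% of all protein-coding genes). Kitl, Cyp11a1, Cyp19a1, Inhba and Has2 were marked in maternal libraries only, as were 16.2% of the marked and 7.32% of all protein-coding genes. Both replicates were marked for 4 of the 7 genes in GV oocytes, against 20.8% of protein-coding genes, and for 3 in MII oocytes (16.2%). No gene of the 7 had this in zygotes (12.7%), 2-cell embryos (12.9%), 8-cell embryos (17.9%) or blastocysts (16.9%).

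**Figure D1:**
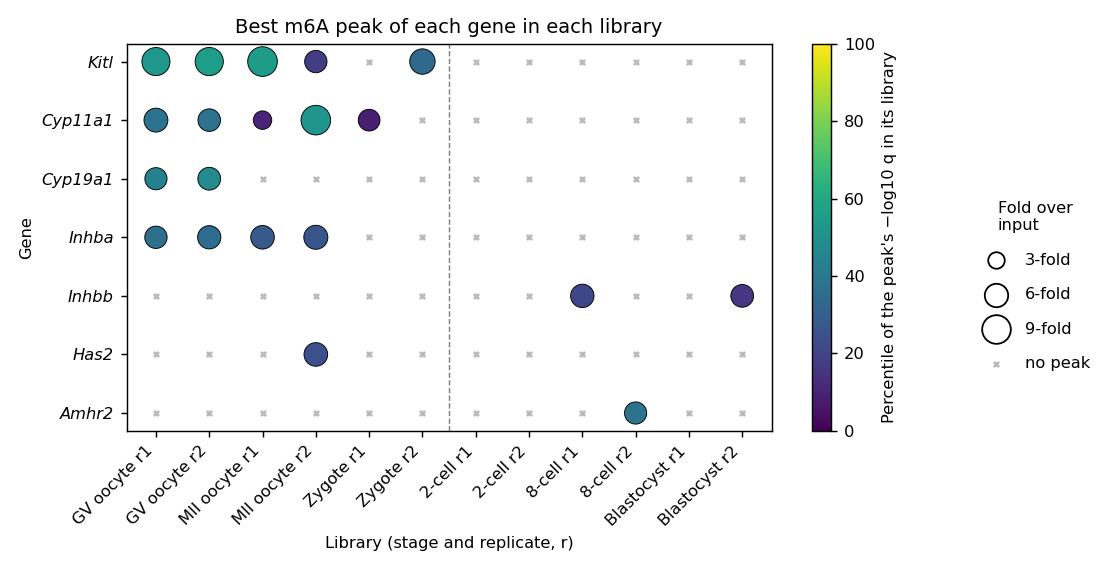
Best m6A peak of each of the 7 genes (rows) in each of the 12 libraries (columns, by stage and replicate). Circle area gives the fold enrichment over input and colour the percentile of the −log10 q-value within the library; crosses mark libraries without a peak, and the dashed line parts maternal (left) from embryonic (right) libraries. Kitl, Cyp11a1 and Inhba are marked in all 4 oocyte libraries, Cyp19a1 in the GV oocytes alone, and no gene in the 2-cell libraries.

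Promoter windows from RefSeq (GRCm38.p6, 250 bases before to 50 after a start site) were at hand for 6 of the 7 genes, 9 windows in all; Has2 has no entry. Shown are 4 of them, those of the genes marked in all 4 oocyte libraries, with both windows of Cyp11a1 because a peak lies just past its second start. Capitals mark 4 motifs, each searched on both strands. The TATA box was searched as TATAAA and the GC box as GGGCGG. The element of steroidogenic factor and its relatives was searched as AAGGTCA. The cAMP response element was searched as TGACGTCA.
Kitl, chr10:100015571-100015870, plus strand: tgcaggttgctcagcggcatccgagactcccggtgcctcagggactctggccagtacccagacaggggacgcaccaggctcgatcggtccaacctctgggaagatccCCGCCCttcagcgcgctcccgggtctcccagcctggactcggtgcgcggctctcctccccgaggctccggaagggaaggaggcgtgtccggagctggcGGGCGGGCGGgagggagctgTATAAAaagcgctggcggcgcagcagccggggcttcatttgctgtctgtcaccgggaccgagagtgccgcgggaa
Cyp11a1 first start, chr9:57997774-57998073, plus strand: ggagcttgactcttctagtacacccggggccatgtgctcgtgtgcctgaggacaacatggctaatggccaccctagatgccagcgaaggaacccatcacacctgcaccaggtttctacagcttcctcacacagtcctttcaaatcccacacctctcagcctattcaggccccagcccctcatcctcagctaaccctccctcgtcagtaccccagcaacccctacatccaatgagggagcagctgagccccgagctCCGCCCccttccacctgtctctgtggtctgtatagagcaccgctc
Cyp11a1 second start, chr9:58014702-58015001, plus strand: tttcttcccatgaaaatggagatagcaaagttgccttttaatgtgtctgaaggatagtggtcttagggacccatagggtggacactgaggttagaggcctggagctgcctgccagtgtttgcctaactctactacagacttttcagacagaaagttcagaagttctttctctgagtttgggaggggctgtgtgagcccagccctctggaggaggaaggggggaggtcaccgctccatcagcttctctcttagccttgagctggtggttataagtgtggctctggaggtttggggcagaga
Inhba, chr13:16011601-16011900, plus strand: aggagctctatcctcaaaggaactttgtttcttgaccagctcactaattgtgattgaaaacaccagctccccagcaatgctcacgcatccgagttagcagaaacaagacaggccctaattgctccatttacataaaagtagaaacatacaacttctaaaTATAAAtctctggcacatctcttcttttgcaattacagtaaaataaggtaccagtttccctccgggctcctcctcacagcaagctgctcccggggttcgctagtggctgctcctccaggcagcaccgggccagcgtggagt
The letters of the TATA box stood in 4 of the 9 windows of the 7 genes, against 13.6% of the 32851 windows of the table. The GC box was found in 4 of 9 (35.7% of all), AAGGTCA in 1 of 9, that of Amhr2 (4.72%), and TGACGTCA in 0 of 9 (1.79%). In Kitl, the GC boxes that begin at bases 206 and 210 overlap, and the TATA box begins at base 226. The second Cyp11a1 window holds none of these letters. A match of letters is a description of the window and not a binding site. No peak of the 6 genes with a window reached into one, and Has2 had no window to check. The nearest peak, of Cyp11a1 in MII oocyte replicate 2, began 52 bp past the end of its second window.

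Kitl encodes the Kit ligand, a growth factor of granulosa cells that acts on the Kit receptor of the oocyte. It was marked in 0 of 6 embryonic libraries and 5 of 6 maternal libraries. The gene spans chr10:100015615-100100416 on the plus strand (mm10, 84802 bp). Fold enrichment of its single peak over input, as the authors give it, was 8.64 and 8.69 in the GV oocyte replicates, 9.64 and 5.45 in the MII oocyte replicates and 7.06 in zygote replicate 2. The −log10 q-values were 33.6 and 39.9 in GV oocytes, 35.9 and 9.75 in MII oocytes and 16.2 in that zygote. MII oocyte replicate 2 was thus the weakest, and zygote replicate 1, the shortest list, had no Kitl peak. The peak stood at percentiles 17.8 to 55.3 of the −log10 q-values of its library, so near or below the middle in each. All 5 peaks shared the 199 bp of chr10:100096534-100096732, and their best summits lay within 39 bp of each other, 3775 to 3814 bp before the annotated 3′ end. The peak was 849 and 871 bp wide in GV oocytes, 399 and 200 bp in MII oocytes and 254 bp in the zygote, so the GV peaks were the widest. The RefSeq table gives neither exons nor untranslated regions, so the exon cannot be named here.

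The question of the comparison by phase was whether a gene was marked in more embryonic or maternal libraries, with Fisher's exact test per gene over the 2310 genes marked often enough to reach an unadjusted p of 0.05, which are those marked in 5 to 7 libraries. Over those genes, 21.6% were called for the embryonic and 28% for the maternal phase. Only Kitl and Cyp11a1 of the 7 genes could be tested, and both had fewer embryonic than maternal marks (Fisher's exact p = 0.0152, Benjamini-Hochberg adjusted p = 0.0306 for each). Of all protein-coding genes, 95 had exactly the library pattern of Kitl and 13 that of Cyp11a1, each count including the gene itself. Libraries of the same stage share that stage, so the p-values concern these 12 libraries and not phases in general, and replicate spread may be partly technical. With equal numbers of peaks per library, Kitl was marked in 0 embryonic and 4 maternal libraries (Fisher's exact p = 0.0606) and the call was lost, as was that of Cyp11a1. Both calls were also lost with scores not below the median score of all peaks, where the embryonic minus maternal difference was -3 libraries for Kitl and -2 for Cyp11a1.

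**Figure D2:**
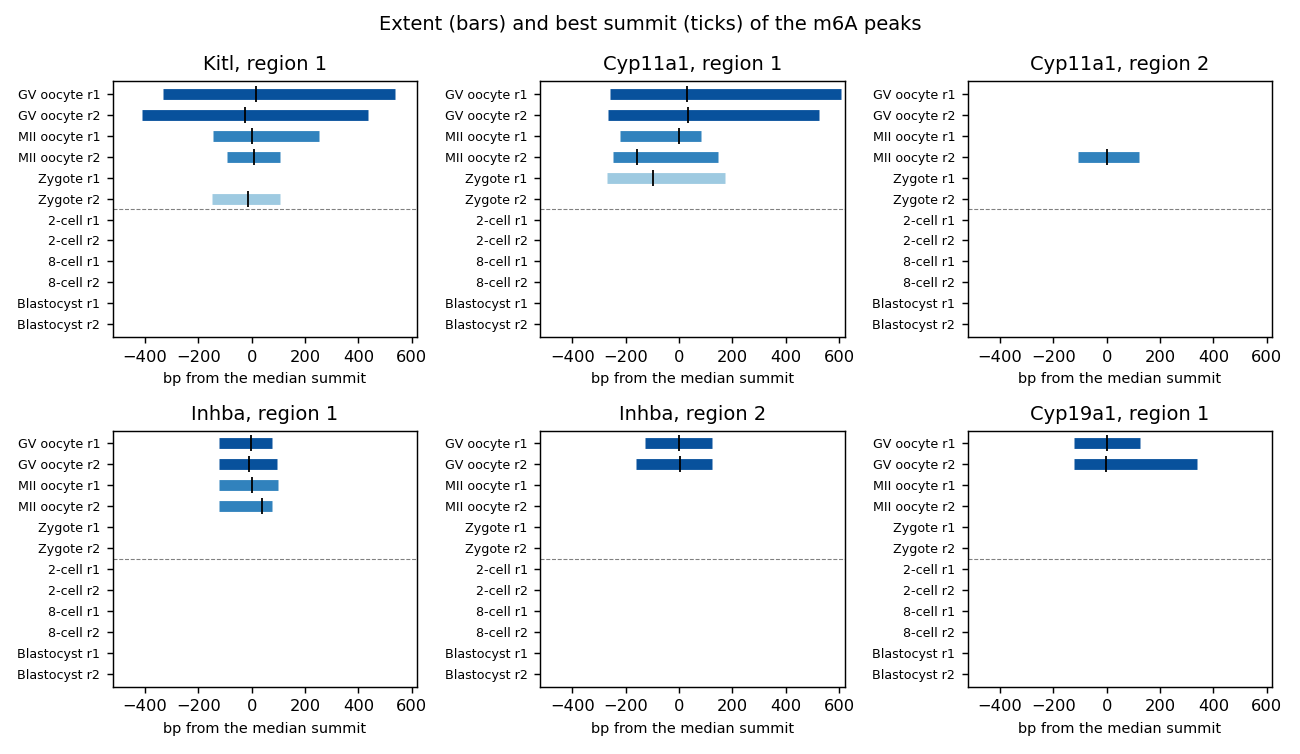
Extent (bars) and best summit (ticks) of the peaks of Kitl, Cyp11a1, Inhba and Cyp19a1 in each library, in bp from the median summit of the region, with higher genome coordinates to the right. The dashed line parts maternal (above) from embryonic (below) libraries; blank rows had no peak. The summits of Kitl spread over 39 bp and those of the first Inhba region over 51 bp, while those of the first Cyp11a1 region spread over 193 bp.

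Cyp11a1 encodes the mitochondrial enzyme that cuts the side chain of cholesterol, the first step of steroid synthesis, and it too was marked in 0 of 6 embryonic and 5 of 6 maternal libraries. The gene spans chr9:57998024-58027031 on the plus strand (29008 bp). Its first region, with peaks in 5 libraries, covers chr9:58005929-58006809, with summits 27.6% to 28.3% of the way along the gene. Fold enrichment there was 6.24 and 5.56 in GV oocytes, 3.73 and 2.78 in MII oocytes and 5.17 in zygote replicate 1, with −log10 q-values of 19.9 and 21.6, 7.80 and 2.29, and 5.29. The GV oocytes held the 2 strongest of these peaks, and the MII oocyte replicate 2 peak stood at percentile 1.07 of its list. This region overlaps Gm17322, an annotated pseudogene inside the Cyp11a1 gene body (chr9:58005812-58006400), in each of the 5 libraries, and reads of the pseudogene and of Cyp11a1 cannot be told apart in a peak list. Without peaks that touch a second gene, Cyp11a1 was marked in 0 embryonic libraries and 1 maternal library, and the call was lost. The remaining peak, chr9:58015053-58015282 in MII oocyte replicate 2, follows the second start site shown above and overlaps no other gene. It had 9.59-fold enrichment, a −log10 q-value of 28.1 and percentile 52.1, which makes it the strongest Cyp11a1 peak, and it was seen in that library alone.

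Cyp19a1 encodes aromatase, the enzyme of granulosa cells that turns androgens into oestrogens. It was marked in 0 of 6 embryonic and 2 of 6 maternal libraries, both of GV oocytes. The gene lies on the minus strand at chr9:54165937-54268164 (102228 bp), and its peaks began at the same base, chr9:54166507. They had 5.37-fold and 5.68-fold enrichment and −log10 q-values of 24.5 and 30.8, and stood at percentiles 43.5 and 47.6. Their summits were 6 bp apart and 696 and 690 bp before the annotated 3′ end, which is nearer to that end than in any other of the 7 genes with a known strand. MII oocytes and all later stages had no Cyp19a1 peak. The gene was marked too rarely to be tested. Its pattern, marked in both GV libraries and no other, was that of 185 protein-coding genes (0.845%), Cyp19a1 included.

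Inhba and Inhbb encode the beta subunits of activin and inhibin, the hormone pair that raises and lowers the release of follicle-stimulating hormone. Inhba was marked in 0 of 6 embryonic and 4 of 6 maternal libraries, which were the 4 oocyte libraries; Cyp19a1 and Has2 were likewise marked in oocytes only, as were 6.44% of the marked genes. Its first region, chr13:16026444-16026668, was called in all 4, with 5.45-fold and 5.54-fold enrichment in GV oocytes and 6.09-fold and 6.32-fold in MII oocytes. The −log10 q-values were 19.3 and 17.4 in GV oocytes and 15.7 and 13.2 in MII oocytes, so the fold was a little higher and the q-value weaker in MII oocytes. The 4 peaks were 200 to 223 bp wide and shared 198 bp, and their summits lay 5001 to 5052 bp before the 3′ end of the gene (chr13:16004256-16031609, plus strand). A second region, chr13:16027025-16027311, was called in the GV oocyte replicates with 4.65-fold and 5.92-fold enrichment, at summits 4 bp apart, and in no MII library. Marked in 4 libraries, Inhba could not reach the threshold in the phase test (Fisher's exact p = 0.0606). It was called without zygote replicate 1 (Fisher's exact test, adjusted p = 0.0400) and without zygote replicate 2 (0.0433), where the remaining zygote had no peak either. Its difference of -4 libraries, embryonic minus maternal, shrank to -1 with equal numbers of peaks per library, and it was 0 with scores not below the median of all peaks and with peaks near gene ends.

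Inhbb had the opposite order, with peaks in 2 of 6 embryonic and 0 of 6 maternal libraries. The peaks did not overlap. That of 8-cell replicate 1 covered chr1:119417331-119417559 with 5.99-fold enrichment and a −log10 q-value of 6.58, and that of blastocyst replicate 2 covered chr1:119417752-119417951 with 5.66-fold enrichment and a −log10 q-value of 4.85. They lay 1987 and 2388 bp before the 3′ end of the gene (chr1:119415463-119422248, minus strand), and in neither stage did the other replicate have a peak. Inhbb was not tested, being marked in 2 libraries.

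Has2, the hyaluronan synthase of the expanding cumulus, had a single peak, in MII oocyte replicate 2, and none in any embryonic library. The peak, chr15:56694323-56694524, had 6.11-fold enrichment and a −log10 q-value of 12.3, and its summit lay 129 bp from the end of higher coordinate of the gene (chr15:56665627-56694546). It also overlaps the long non-coding RNA gene Has2os (chr15:56689944-56694460), and since the lists give no strand, RNA of the 2 genes cannot be told apart. Amhr2, the type II receptor of anti-Müllerian hormone, had a single peak too, in 8-cell replicate 2 (chr15:102450630-102450872, 5.38-fold, −log10 q-value of 12.8), and none in maternal libraries. Of the genes marked at all, 16.5% were marked in 1 library only, as Has2 and Amhr2 were. The other replicate of the same stage lacked the peak in both cases, so neither pattern exceeded the spread between replicates.

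The same test was made between the 8 embryo libraries, zygotes included, and the 4 oocyte libraries. Inhba was marked in 0 of 8 embryo and 4 of 4 oocyte libraries, and Kitl and Cyp11a1 in 1 of 8 and 4 of 4 each. The unadjusted Fisher's exact p was 0.00202 for Inhba and 0.0101 for Kitl and Cyp11a1, but after Benjamini-Hochberg adjustment over 4269 genes it was 0.205 and 0.252. Fisher's exact test called 0% of the genes in either direction here, with 244 genes at an unadjusted p under 0.05. No test between single stages was made, since an exact test of 2 against 2 libraries cannot give a p below 0.333.

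The bases covered by peaks were compared in the 6952 genes marked in at least 3 libraries. Kitl had 0 covered bp in every embryonic library and 429 ± 358 bp in the maternal libraries, Cyp11a1 0 and 506 ± 325 bp, and Inhba 0 and 231 ± 216 bp (SD, n = 6 each). None of these 3 passed: the adjusted p of the exact permutation test was 0.0525 for Kitl and Cyp11a1 and 0.131 for Inhba, where 6.85% of genes were called for the embryonic and 13.6% for the maternal phase. Kitl passed without zygote replicate 1 (adjusted exact permutation p = 0.0154), the maternal library in which it has no peak. Cyp11a1 passed without zygote replicate 2 (0.0188), 2-cell replicate 1 (0.0450) or 2-cell replicate 2 (0.0472), by the same exact permutation test.

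**Figure D3:**
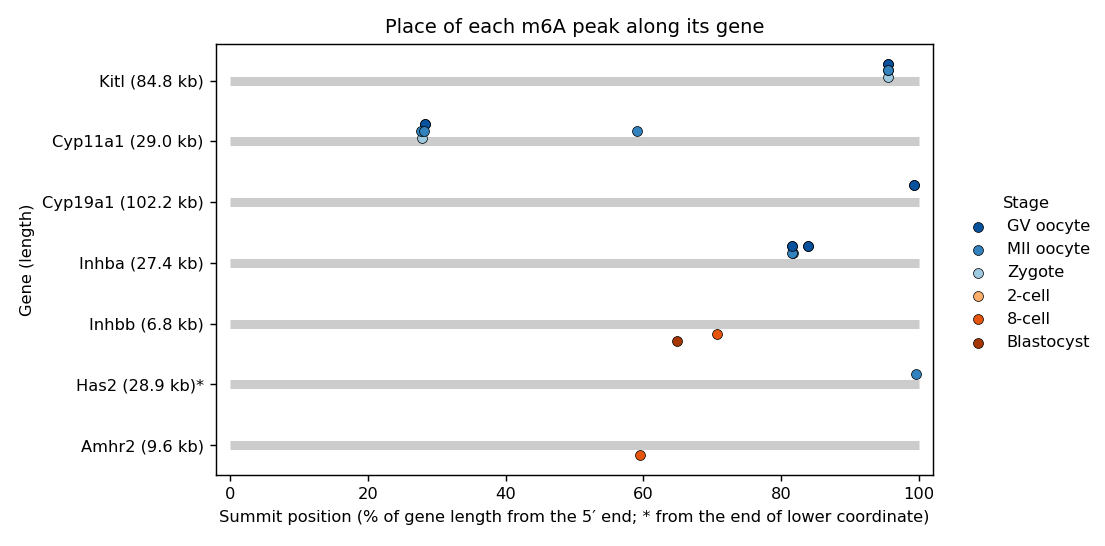
Summit of each peak along its gene, in percent of the gene length from the 5′ end (for Has2, whose strand is not in the table used, from the end of lower coordinate). Points are coloured by stage and shifted up or down by stage. Peaks of Kitl, Inhba and Cyp19a1 lie in the last 20% of their genes. Those of the first Cyp11a1 region lie at 27.6% to 28.3%, and the single peak of its second region at 59.1%.

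Along the genes, peaks of different libraries shared a place in some regions and not in others. The 23 peaks fell into 10 regions, 5 of them found in several libraries and 5 in 1 library. Of the 22 peaks in genes of known strand, 13 had their summit in the last 20% of the gene, and these were all the peaks of Kitl, Inhba and Cyp19a1. The others lay between 27.6% and 70.7% of the way from the 5′ end. The 13 include repeat calls of the same regions in several libraries. The share of all peaks that lie in the last 20% of their genes was not counted. Of the 23 peaks, 4 had their midpoint within 2000 bp of a gene end, against 36.7% of all peaks in protein-coding genes. The 4 were Cyp19a1 in both GV libraries, Has2, and Inhbb in 8-cell replicate 1. The 23 peaks are partly repeat calls of the same regions in several libraries, and the 36.7% is not matched for gene length. Whether the 7 genes differ from other genes in this was not tested. Fold enrichment of the 23 peaks was 2.78 to 9.64 with a median of 5.68. Of these peaks, 18 lay in oocyte libraries, whose median fold over all peaks was 4.59 to 4.98, against 5.34 to 6.79 in the other libraries. By −log10 q-value, 4 of the 23 ranked above the median −log10 q-value of their library.

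Of 12 further granulosa cell markers, 3 were marked in any library, against 45.2% of all protein-coding genes, and 9 had no peak, among them Fshr (the receptor of follicle-stimulating hormone), Foxl2 (a transcription factor of granulosa identity), Amh, Inha, Star and Lhcgr. The list had 0 or 1 genes marked per embryonic library and 0 to 2 per maternal library, where 13.8% to 23.9% of all protein-coding genes were marked. Gata4, which is also a factor of primitive endoderm, was marked in 4 embryonic and 0 maternal libraries. Esr2 (oestrogen receptor beta) and Hsd3b1 (a steroid dehydrogenase) were marked in 0 embryonic and 3 and 2 maternal libraries. Of 12 genes of cumulus expansion, 11 were at 0 in every library, including Ptx3 and Tnfaip6 (proteins of the cumulus matrix), Ptgs2 and Vcan. Adamts1, a protease of that matrix, had a peak in MII oocyte replicate 1 only, at percentile 4.48.

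MII oocyte replicate 2 held several peaks at places where no other library had one. Its Cyp11a1 peak past the second start and its Has2 peak were in no other library, and its Esr2 peak (chr12:76123241-76123440, 7.09-fold) and Hsd3b1 peak (chr3:98853276-98853476, 7.20-fold) lay apart from those of the GV oocytes in the same genes. These 2 were picked out after their values were seen. Other libraries also held peaks at places of their own, in Amhr2, Inhbb, Adamts1 and Gata4, and GV oocyte replicate 2 held one in Hsd3b1. Of all genes marked at all, 16.5% were marked in 1 library only. The share of peaks found in a single library was not counted over all peaks. Whether MII oocyte replicate 2 held more of them than other libraries was thus not tested. MII oocyte replicate 1 had no peak in Has2, Esr2 or Hsd3b1. Without MII oocyte replicate 2, Has2 had no peak at all, while Kitl and Cyp11a1 were still called (Fisher's exact test, adjusted p = 0.0427). RNA of attached follicle cells was not measured apart from that of the oocytes, and its part in these peaks was not tested.

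Markers of other cell types were counted in the same way, each list against the 45.2% of protein-coding genes marked in any library. Of 6 theca cell markers, 1 was marked, Ptch1, in a blastocyst library. Of 6 oviduct epithelium markers, 1 was marked, Ovgp1 (the oviduct glycoprotein), in both 2-cell libraries. Of 6 white blood cell markers, 1 was marked, Cd52, in an 8-cell library. Of 6 sperm markers, 5 were at 0, and Prm2 (a protamine) was marked in 0 embryonic and 6 maternal libraries, the oocytes included, with 7.22-fold to 22.1-fold enrichment (Fisher's exact test, adjusted p = 0.00963).

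**Figure D4:**
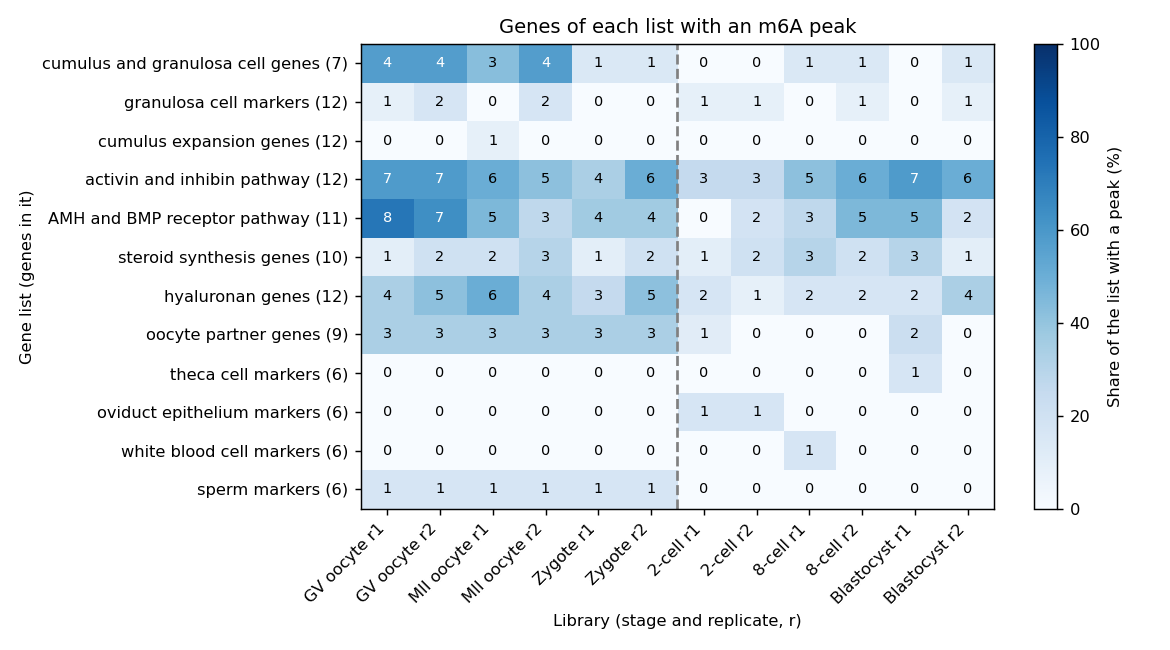
Number of genes of each list with a peak in each library (figures in the cells; colour, share of the list in percent; list size in brackets). The dashed line parts maternal (left) from embryonic (right) libraries. The granulosa, cumulus expansion, theca, oviduct and white blood cell lists have 0 to 2 genes marked in each library.

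Among 9 partner genes on the oocyte's side, 3 were marked in any library, a smaller share than the 45.2% of all protein-coding genes. These were the growth factor genes Gdf9 and Bmp15 and the gap junction gene Gja4, marked in 2, 1 and 0 embryonic libraries and each in all 6 maternal ones. Bmp15 (Fisher's exact test, adjusted p = 0.0306) and Gja4 (0.00963) were called for the maternal phase, zygotes included, where 28% of all 2310 tested genes were. Kit, the receptor for the Kit ligand, had no peak in any library, nor had Zp1, Zp2, Zp3, Oosp1 or Fgf8.

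Of 12 genes of the activin and inhibin pathway, 9 were marked at some stage, against 45.2% of all protein-coding genes. They numbered 3 to 7 per embryonic library and 4 to 7 per maternal library, where 13.8% to 23.9% of all protein-coding genes were marked. Smad4, the shared SMAD, was marked in all 12 libraries, and the activin receptors Acvr2a and Acvr2b in 6 and 3 embryonic and 4 and 6 maternal libraries. Smad2 was marked in 4 embryonic and 4 maternal libraries. Of the 4 genes that could be tested, 1 was called for the embryonic and 2 for the maternal phase, where 21.6% and 28% of all 2310 tested genes were. Smad7, an inhibitory SMAD, was the embryonic one (6 embryonic and 0 maternal libraries; Fisher's exact test, adjusted p = 0.00963). Tgfbr3, a co-receptor for inhibin, was called for the maternal phase (0 and 6; 0.00963), and so was Smad3, which carries the activin signal (1 and 6; 0.0306). Inha, the subunit that makes inhibin of the beta subunits, and Fst, which binds activin, were unmarked. The median difference over the marked genes of this list, as a share of libraries and embryonic minus maternal, was 0, as it was over all 9903 marked genes.

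Around the receptor of anti-Müllerian hormone, 10 of 11 genes were marked in any library, against 45.2% of all protein-coding genes. The hormone gene Amh was not. Per library, 0 to 5 were marked in embryonic and 3 to 8 in maternal libraries, most in GV oocytes (8 and 7). Of all protein-coding genes, 13.8% to 23.9% were marked per library. Of 5 tested genes, 0 were called for the embryonic phase (21.6% of all tested genes) and 3 for the maternal phase (28%): the receptor Bmpr1b (0 embryonic and 6 maternal libraries; Fisher's exact test, adjusted p = 0.00963), Smad1 (1 and 6; 0.0306) and Smad9 (0 and 5; 0.0306). Bmpr2, a type II receptor, was marked in 3 and 5 libraries and Bmpr1a in 4 and 2 (Fisher's exact test, adjusted p = 0.698). The median difference over the marked genes of this list, embryonic minus maternal as a share of libraries, was -0.25.

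The steroid synthesis genes were mixed in direction, while no marked hyaluronan gene had more embryonic than maternal libraries. The median difference over marked genes, as a share of libraries and embryonic minus maternal, was 0.167 for the steroid list. For the hyaluronan list it was -0.417, and over all 9903 marked genes it was 0. Of 10 steroid synthesis genes 5 were marked, near the 45.2% of all protein-coding genes marked in any library. Cyp17a1, Star, Hsd17b1, Nr5a1 and Srd5a1 were at 0. Nr5a2, a nuclear receptor of granulosa cells and early embryos, was marked in all 12 libraries, and Por, which passes electrons to cytochrome P450 enzymes, in 4 embryonic and 3 maternal ones. Hsd3b1 was marked in 0 embryonic and 2 maternal libraries and Fdxr in 1 and 0. Of 12 hyaluronan genes 6 were marked, also near 45.2%. They numbered 1 to 4 per embryonic and 3 to 6 per maternal library, where 13.8% to 23.9% of all protein-coding genes were marked. Hyal1, a hyaluronidase, was the 1 gene of 3 tested that was called (0 embryonic and 5 maternal libraries; Fisher's exact test, adjusted p = 0.0306), a share near the 28% of all tested genes. Cemip2 was marked in 4 and 6 libraries and Hmmr, a hyaluronan receptor, in 4 and 4. Hyal2 was marked in 2 and 5 libraries (Fisher's exact test, adjusted p = 0.339) and Hyal3 in 3 and 3, and neither was called. Has3, another hyaluronan synthase, was marked in 0 embryonic and 4 maternal libraries, which is more often than Has2.

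Over the 12 libraries, the genes whose best-peak percentile ran most like that of Kitl were Neu3 (Pearson r = 0.993), Pard6g (0.992) and Rcsd1 (0.987). Those most like Cyp11a1 were Plb1 (0.982), Esr2 (0.950) and Cntn2 (0.950), and those most like Inhba were Vwde (0.993), Capn7 (0.992) and D930020B18Rik (0.991). Each of these 9 genes was marked in no embryonic library. Libraries with no peak count as 0 in this measure and the libraries share their stage, so the values describe a shared pattern and carry no p.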

How the data were processed

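Peaks of m6A were analysed in 12 immunoprecipitated libraries, 2 per stage. Per the submitters' processing notes, the authors used MACS2 2.1.2, HISAT2 2.1.0, bedtools 2.28.0, SAMtools 1.9, cutadapt 1.8.1, deepTools 3.2.0, FastQC 0.11.8 and mm10, with settings not given in the sources used here. Peak names in the deposited lists pair every library with its own stage's input of equal replicate number, so the authors called peaks per library. The deposited lists give a score, a fold enrichment (ratio), a −log10 p-value and a −log10 q-value per summit. Depth is unknown.

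From these, the 143579 summits were collapsed to 113764 intervals, each with its best q-value, and assigned to the RefSeq gene bodies (GRCm38.p6, the assembly of mm10) they overlap by at least 1 bp. Tests were Fisher's exact test per gene and an exact two-sided permutation test of covered bases over 924 splits, adjusted by Benjamini-Hochberg at 0.05 over all genes tested, and both were tested on simulated data. Python 3.11.15, SciPy 1.17.1 and pandas 2.3.3 were used. Alternatives were overlap rules, peak thresholds, equal list lengths, a replicate block and leaving out each library. The genes and lists were chosen with earlier results of these data known. Named by rule are the 7 genes, up to 4 genes per list with the most marked libraries, and the 3 genes most alike in pattern; the other list genes, such as Smad3, Smad7, Tgfbr3, Smad9, Hyal1, Has3 and the unmarked ones, were named after their values were seen.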

Additional observations from a re-analysis of the deposited data

Results flagged for a closer look

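Gap tests on 38 groups of 6 libraries set 6 single libraries apart. For evenly varying values chance gives about 1 in 20 groups, but 5 of the 6 are 1 marked library against 0 in the others, which such a test always sets apart, so that rate does not hold for them. Among the 7 genes, Has2 had 202 bp covered by a peak in MII oocyte replicate 2 and 0 bp in the other maternal libraries. Amhr2 had 243 bp covered in 8-cell replicate 2 and 0 bp in the other embryonic libraries. Among the lists, 1 gene of cumulus expansion was marked in MII oocyte replicate 1 and 0 in the other maternal libraries. Likewise 1 theca cell marker was marked in blastocyst replicate 1 and 1 white blood cell marker in 8-cell replicate 1, against 0 in the other embryonic libraries. Of the hyaluronan genes, 4 were marked in blastocyst replicate 2, above the other embryonic libraries.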

How the results depend on the processing

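Kitl and Cyp11a1 kept fewer embryonic than maternal marks, and their call, without each library in turn (Fisher's exact test, adjusted p of 0.0123 to 0.0436 and 0.0140 to 0.0436). With scores not below the median score of all peaks, Kitl was marked in 3 fewer and Cyp11a1 in 2 fewer embryonic than maternal libraries (differences of -3 and -2), with equal list lengths in 4 and 3 fewer (-4 and -3), and neither could be called; no Kitl or Cyp11a1 peak lies within 2000 bp of a gene end (0 and 0). With fold at or above the median of the library, Cyp11a1 stood at -3 and its call was lost, while Kitl stayed called (Fisher's exact test, adjusted p = 0.0430). Counts of genes called more often in the embryonic and in the maternal phase moved to 321 and 289 when peaks had to lie within 2000 bp of a gene end, and to 225 and 344 with the fold threshold; with the score threshold the embryonic count moved to 190. By covered bases they moved to 245 and 288, to 139 and 319, and, embryonic alone, to 146. The difference in members of the list of 7 marked per library (-2.33) moved to -0.333 near gene ends, to -1.17 with the score threshold, to -1.33 with equal list lengths and to -1.5 without peaks that touch a second gene. The cause was not tested. Without 1 library, the counts were 501 to 815 embryonic and 675 to 909 maternal by marks, the highest embryonic one without 2-cell replicate 1 (769 without replicate 2), 406 to 1139 and 853 to 1149 by covered bases, and 0 to 0 for embryos against oocytes; the difference was -2.7 to -2.1. With a replicate block the counts were 498 and 647 by marks, 392 and 782 by covered bases and 0 for embryos against oocytes. No call of the 7 genes changed. The deviations of same-numbered samples correlated at -0.165 to 0.0249 over 15 pairs of stages. This measure cannot show whether same-numbered samples shared a day or batch, which was not tested. Peak lists hold no depth, so a missing peak is no absence of m6A.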
